A study of Mus musculus with 24 samples.

Results

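The neurexins, neuroligins and leucine-rich repeat transmembrane (LRRTM) proteins were followed through their H3K27ac peaks, which mark acetylated histone H3 at active promoters and enhancers. All peaks were taken whose nearest named gene was Nrxn2, Nrxn3, Nlgn1, Nlgn2, Lrrtm1, Lrrtm2, Lrrtm3 or Lrrtm4. The list gave 372 of the 144154 peaks, held by 7 of the 8 genes, and Nrxn2 was not analysed here. Of these, 12 were promoter peaks, with an edge no more than 1000 bp from the start site named beside them. A further 315 lay in introns and 45 elsewhere. All 372 passed the filter on low counts.

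The peaks came from neuronal nuclei of the dentate gyrus, sorted with an antibody to the neuronal protein NeuN, of male C57BL/6J mice aged 12 weeks. HDACi mice were injected with 30 mg/kg of CI-994, which blocks class I histone deacetylases, 1 h before training, and Veh mice with the same solution without it. CFC mice then had contextual fear conditioning with 2 foot shocks of 0.2 mA, whereas Context mice spent the same time in the chamber without shock. Mice were killed 1 h later. There were 3 libraries in each of 4 groups, HDACi-CFC, HDACi-Context, Veh-CFC and Veh-Context. Cages were assigned whole to a training, so effects of shock and of cage cannot be told apart. The labels do not say whether a library is 1 mouse or a pool, so p-values measure the spread between these libraries, which may in part be technical. In sorted bulk nuclei, a change in the share of a neuron type and a change of the mark per nucleus cannot be told apart.

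Neurexins are presynaptic adhesion proteins that bind partners across the synaptic cleft. Neuroligins and LRRTMs are postsynaptic partners of neurexins. Neuroligin-1 is found mainly at excitatory synapses and neuroligin-2 mainly at inhibitory ones. LRRTM proteins act at excitatory synapses, and LRRTM4 is prominent on granule neurons of the dentate gyrus. Neurexin genes have an upstream promoter for long transcripts and an internal promoter for short ones. Several LRRTM genes lie inside introns of alpha-catenin genes, which encode proteins that link cadherins to actin.

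Library totals ran from 6639158 to 16734757 reads in peaks. Promoter peaks of all genes held 25.2% to 25.4% of the reads in HDACi-CFC libraries, 18.3% to 19.6% in HDACi-Context, 24.9% to 26.7% in Veh-CFC and 21.4% to 22.5% in Veh-Context. All 6 neuronal and all 7 granule-neuron markers had a promoter peak. Of markers of other cells, 7 of 7 for oligodendrocytes, 4 of 4 for their precursors, 5 of 6 for astrocytes (none for Aqp4) and 4 of 6 for microglia (none for Aif1 and Ctss) had one. So did 3 of 6 for CA pyramidal neurons (none for Fibcd1, Man1a and Bok), 2 of 5 for endothelial and mural cells (none for Cldn5, Flt1 and Pecam1) and 1 of 7 for GABAergic interneurons (none for Gad2, Slc32a1, Pvalb, Sst, Vip and Lhx6). The summed oligodendrocyte promoters ran from 186 to 209 library-scaled counts (CPM) in HDACi-CFC libraries, 101 to 115 CPM in HDACi-Context, 178 to 227 CPM in Veh-CFC and 137 to 153 CPM in Veh-Context. The summed neuronal promoters ran from 603 to 651, 366 to 408, 593 to 658 and 489 to 557 CPM in the same order of groups. Both sums were thus higher in CFC than in Context libraries under either injection, as were promoter peaks in general, and their part in the changes below was not tested.

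Windows of 250 bases before a RefSeq start (GRCm38.p6) are shown for a choice of starts. These are Nlgn2, whose promoter peaks changed most with shock, and the 2 Nrxn3 starts with a peak. Lrrtm3 is also shown, because its drug effect on the ratio of promoter to intronic reads was called as different between trainings. Nlgn1, whose promoter peaks also differed from each other, is not shown. Capitals mark the GC box GGGCGG, searched on both strands together with TGACG, the core of the cAMP response element.
Nlgn2, chr11:69837785-69838034, minus strand: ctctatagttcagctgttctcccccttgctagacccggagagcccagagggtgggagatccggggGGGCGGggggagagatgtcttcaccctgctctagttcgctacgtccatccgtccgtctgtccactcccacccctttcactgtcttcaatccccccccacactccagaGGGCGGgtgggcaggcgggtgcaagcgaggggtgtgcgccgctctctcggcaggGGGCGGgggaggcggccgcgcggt
Nrxn3 upstream start, chr12:88953140-88953389, plus strand: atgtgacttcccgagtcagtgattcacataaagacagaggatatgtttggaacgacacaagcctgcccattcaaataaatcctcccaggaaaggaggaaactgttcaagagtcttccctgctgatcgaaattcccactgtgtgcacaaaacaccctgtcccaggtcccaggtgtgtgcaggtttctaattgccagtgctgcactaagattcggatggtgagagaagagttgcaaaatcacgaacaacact
Nrxn3 downstream start, chr12:89812233-89812482, plus strand: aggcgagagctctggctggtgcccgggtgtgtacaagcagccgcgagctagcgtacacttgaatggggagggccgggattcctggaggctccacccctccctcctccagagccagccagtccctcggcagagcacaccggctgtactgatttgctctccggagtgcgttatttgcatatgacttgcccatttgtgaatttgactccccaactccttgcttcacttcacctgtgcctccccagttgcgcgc
Lrrtm3, chr10:64090256-64090505, minus strand: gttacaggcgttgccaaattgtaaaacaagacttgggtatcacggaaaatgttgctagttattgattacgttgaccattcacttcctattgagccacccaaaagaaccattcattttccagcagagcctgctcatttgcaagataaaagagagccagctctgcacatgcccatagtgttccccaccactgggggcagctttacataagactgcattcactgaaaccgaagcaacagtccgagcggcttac
The Nlgn2 window held 3 GC boxes, and the other 3 windows held none. The Nlgn1 windows that are not shown, chr3:26331910-26332159 and chr3:26153987-26154236, held none either. GGGCGG occurred in 32.7% of 32851 RefSeq windows of this length. TGACG was in none of the 4 and in 17.8% of all windows. CpG pairs numbered 18 in the Nlgn2 window, 5 and 12 at the upstream and downstream Nrxn3 starts and 6 at Lrrtm3, against a median of 6. Each of these windows overlapped a peak of its gene. A further Nrxn3 start, at chr12:88794254-88794503, lies upstream of both shown and overlapped no peak. The name upstream start is thus used for the first of the 2 Nrxn3 starts with a peak.

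The genes were covered very unequally. Nrxn3, which spans 1612235 bp (chr12:88722701-90334935), had 101 peaks, 81 of them in its own introns. Nlgn1 (911059 bp, chr3:25421808-26332866) had 90 peaks, 85 of them in its own introns, and Lrrtm4 (791305 bp, chr6:80018858-80810162) had 73 peaks, 62 of them in its own introns. Nlgn2 (14662 bp, chr11:69823123-69837784) had only 3 peaks, all at the promoter. Of the small LRRTM genes, Lrrtm1 had 60 peaks and all of its 48 intronic ones lay in the alpha-catenin gene Ctnna2. The 17 intronic peaks named for Lrrtm2 lay in Sil1 (12), a chaperone cofactor gene, and the alpha-catenin gene Ctnna1 (5). Of 22 for Lrrtm3, 9 lay in Ctnna3 and 13 in its own introns. A peak named for an LRRTM gene can thus belong to its host gene.

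The 12 promoter peaks were broad and strong by their medians, though not all of them were. Their median width was 3385 bp against 1392 bp for all promoter peaks, and their median level was 5.08 against 3.48 CPM per kb. All 3 Nlgn2 peaks (2.42, 3.48 and 3.47 CPM per kb) and the downstream Nrxn3 peak (3.06) did not exceed that level. Nlgn2 peaks of 1326 and 517 bp were also narrower than the median. The Lrrtm2 promoter peak had the highest mean level, 8.87 CPM per kb, and the Nlgn2 peak farthest into the gene the lowest, 2.42 CPM per kb. The authors' chromatin states put 10 of the 12 in the strong promoter state. The broad Lrrtm1 promoter peak was in the active enhancer state, and the Nlgn2 peak farthest into the gene in the primed enhancer state. The Lrrtm2 promoter peak covers the whole gene (chr18:35209003-35215024), and the Lrrtm1 one takes up 18933 bp of a gene of 30706 bp. Signal of the promoter and of the gene body cannot be told apart at these peaks. The intronic peaks resembled other intronic peaks in width, with a median of 1152 bp against 1180 bp, and had 3.09 against 2.77 CPM per kb. Of them, 50.8% carried the state named control, compared with 36.1% of all intronic peaks.

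Foot shock went with more H3K27ac at promoter peaks of this family and less at its intronic peaks. Averaged over both injections, CFC minus Context, 8 of 12 promoter peaks rose and none fell (edgeR quasi-likelihood test, Benjamini-Hochberg adjusted over 144014 peaks, adjusted p under 0.05). Of all promoter peaks, 48.4% rose and 3.27% fell. Among the 315 intronic peaks 189 fell and 2 rose, whereas 18.9% of all intronic peaks fell and 17.5% rose. The median log2 change was 0.28 at the promoters and −0.49 at the intronic peaks of the family, against 0.33 and −0.07 at all promoter and all intronic peaks. The promoter side was therefore near the background, and the intronic side lay below it. Counting peaks of every class, 221 of 372 changed, where 41.1% of all peaks did.

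Among the 12 promoter peaks, those of Nlgn2 rose most with shock. Its main promoter peak, chr11:69834471-69837472, had 15.6, 16.6 and 17.9 CPM in HDACi-CFC, 5.63, 3.77 and 3.13 CPM in HDACi-Context, 19.8, 14.2 and 9.06 CPM in Veh-CFC, and 6.79, 5.30 and 7.42 CPM in Veh-Context. All CFC libraries lay above all Context libraries. The log2 change with shock was 2.003 ± 0.21 (SE) under HDACi (edgeR adjusted p = 4.19e-08) and 1.11 ± 0.21 under vehicle (edgeR adjusted p = 0.00345). The HDACi-Context and Veh-Context libraries overlapped, and HDACi minus Veh in Context was −0.68 ± 0.23 (edgeR adjusted p = 0.0657). That drop was called with only the groups compared (edgeR adjusted p = 0.0329) and, at −0.94, without HDACi-Context replicate 1 (edgeR adjusted p = 0.00401). The difference between the shock effects under HDACi and vehicle was 0.89 ± 0.30, with an edgeR adjusted p of 0.233.

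The other Nlgn2 promoter peaks moved the same way with shock. The peak farther into the gene, chr11:69832642-69833967, had 3.95 to 4.45 CPM in HDACi-CFC, 0.82 to 3.01 CPM in HDACi-Context, 3.50 to 4.25 CPM in Veh-CFC and 2.06 to 3.14 CPM in Veh-Context. Its log2 change over both injections was 0.81 ± 0.20 (edgeR adjusted p = 0.00112), and no CFC library overlapped a Context library. The peak before the gene, chr11:69837868-69838384, contains part of the GC-box window shown above and has a mean of only 18.3 counts a library. It had 1.68 to 2.03 CPM in HDACi-CFC, 0.23 to 0.97 CPM in HDACi-Context, 1.84 to 4.50 CPM in Veh-CFC and 1.12 to 1.91 CPM in Veh-Context. It rose with shock by 1.41 ± 0.27 over both injections (edgeR adjusted p = 4.67e-05) and was lower in HDACi-Context than in Veh-Context by a log2 change of −1.47 ± 0.42 (edgeR adjusted p = 0.0193). The file annotates it as the promoter of the divergent neighbour Tmem256, and signal of the 2 genes cannot be told apart there.

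At Nlgn1 the promoter peaks did not all change. The peak just inside the upstream start, chr3:26328971-26331459, had 14.3, 12.7 and 11.2 CPM in HDACi-CFC, 8.41, 8.69 and 10.0 CPM in HDACi-Context, 14.5, 12.1 and 13.9 CPM in Veh-CFC, and 13.1, 9.86 and 11.7 CPM in Veh-Context. CFC and Context libraries were separate under HDACi and overlapped under vehicle. The log2 change with shock was 0.50 ± 0.15 under HDACi (edgeR adjusted p = 0.00628, or 0.064 without HDACi-CFC replicate 1) and 0.20 ± 0.15 under vehicle (edgeR adjusted p = 0.449). The peak across the upstream start, chr3:26331903-26333381, changed by 0.43 ± 0.16 under HDACi (edgeR adjusted p = 0.0289, or up to 0.136 without HDACi-CFC replicate 1 or 2 or HDACi-Context replicate 2 or 3) and by 0.22 ± 0.12 over both injections (edgeR adjusted p = 0.114). At the downstream start, chr3:26149422-26155063, the Nlgn1 promoter peak with the highest mean CPM, the change with shock was 0.08 ± 0.09 (edgeR adjusted p = 0.46).

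Nrxn3 showed a comparable split between its 2 starts with a peak. The upstream of these is not the first start of the gene, and which transcripts begin at each was not examined. At the downstream start, chr12:89811437-89814823, the peak had 13.2, 12.48 and 10.6 CPM in HDACi-CFC, 9.59, 8.40 and 8.03 CPM in HDACi-Context, 10.5, 11.3 and 11.2 CPM in Veh-CFC, and 9.93, 8.54 and 10.6 CPM in Veh-Context. CFC and Context libraries were separate under HDACi and overlapped slightly under vehicle. Its log2 change with shock was 0.48 ± 0.14 under HDACi (edgeR adjusted p = 0.00799, or 0.058 without HDACi-CFC replicate 1) and 0.32 ± 0.11 over both injections (edgeR adjusted p = 0.0129, or 0.057 with library totals). At the upstream start, chr12:88952204-88955586, the peak had 13.4, 14.4 and 10.1 CPM in HDACi-CFC, 10.4, 11.4 and 12.6 CPM in HDACi-Context, 14.4, 13.8 and 13.2 CPM in Veh-CFC, and 14.9, 16.9 and 15.2 CPM in Veh-Context. Every Veh-CFC library lay below every Veh-Context library, and the HDACi libraries overlapped. The change with shock was −0.02 ± 0.10 over both injections (edgeR adjusted p = 0.885). The difference between the starts was not itself tested.

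**Figure D1:**
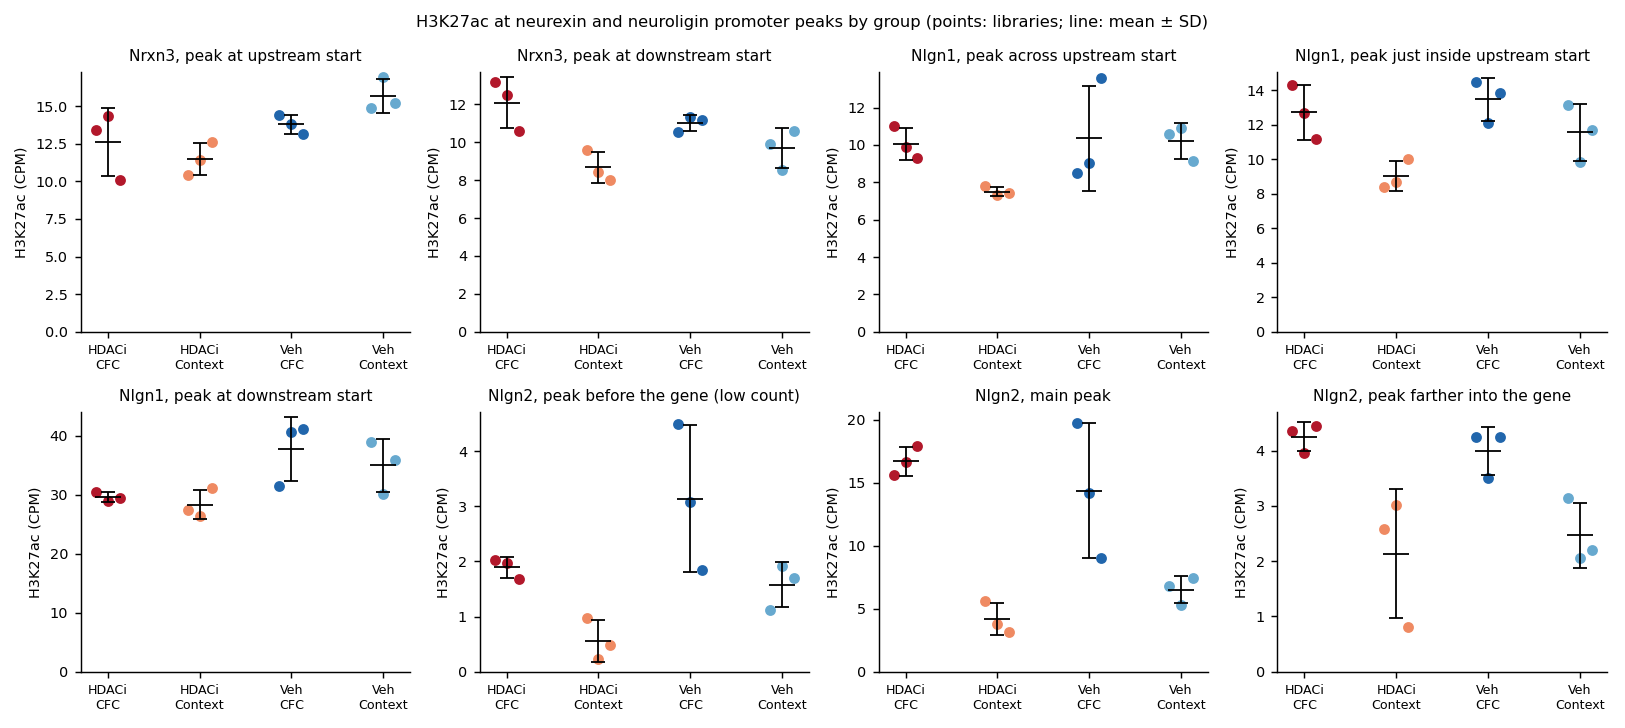
CPM (vertical axes, linear, TMM-scaled) of the 8 Nrxn3, Nlgn1 and Nlgn2 promoter peaks in the 12 libraries, 1 panel a peak, with points for libraries and bars for the group mean and SD (n = 3). At the main Nlgn2 peak the CFC libraries run from 9.06 to 19.8 CPM and the Context libraries from 3.13 to 7.42 CPM. CFC and Context libraries overlap at the upstream of the 2 Nrxn3 starts with a peak.

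The LRRTM promoters had small changes with shock that depended on how libraries were scaled. The Lrrtm1 promoter peak, chr6:77240013-77258945, had 110.5 to 126 CPM in HDACi-CFC, 87.5 to 100.03 CPM in HDACi-Context, 124 to 130 CPM in Veh-CFC and 98.5 to 104 CPM in Veh-Context. All CFC libraries lay above all Context libraries. It rose by a log2 change of 0.31 ± 0.07 over both injections (edgeR adjusted p = 0.000614), but by 0.02 with loess scaling, which corrects each library along signal strength, and under HDACi that scaling turned the change to −0.15. The Lrrtm3 promoter peak, chr10:64083154-64091219, rose by 0.25 ± 0.08 over both injections (edgeR adjusted p = 0.0121), and by 0.09 with loess scaling. The Lrrtm2 promoter peak, chr18:35208275-35217957, rose by 0.22 ± 0.08 (edgeR adjusted p = 0.0173) and turned to −0.03 with loess scaling. With library totals neither the Lrrtm2 nor the Lrrtm3 rise was called (log2 changes of 0.14 and 0.16), and the Lrrtm2 call was also lost without HDACi-CFC replicate 2, Veh-CFC replicate 3 or Veh-Context replicate 2. The Lrrtm4 promoter peak, chr6:80017339-80026102, had a change of 0.19 ± 0.08 (edgeR adjusted p = 0.0532), which was called with DESeq2 (0.20, DESeq2 adjusted p = 0.0473). With loess scaling, and equally with library totals, 5 of the 12 promoter peaks still rose, against 9 with DESeq2, while 186, 225 and 155 intronic peaks fell under these 3 settings.

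CI-994 went with lower H3K27ac at Lrrtm2 whatever the training, at a promoter peak that covers the whole gene. The Lrrtm2 promoter peak had 72.6, 82.5 and 77.3 CPM in HDACi-CFC, 59.8, 63.2 and 60.4 CPM in HDACi-Context, 91.7, 107 and 120.3 CPM in Veh-CFC, and 108, 91.7 and 96.8 CPM in Veh-Context. All 6 HDACi libraries lay below all 6 Veh libraries. The log2 change, HDACi minus Veh, was −0.46 ± 0.11 in CFC (edgeR adjusted p = 0.0222) and −0.69 ± 0.11 in Context (edgeR adjusted p = 2.07e-05). It was the only one of the 372 peaks called in CFC, where 0.918% of all peaks were called. That call was made in 14 of 19 alternative settings, and was lost without any 1 of the 3 HDACi-CFC libraries or without Veh-CFC replicate 2 or 3, with an edgeR adjusted p of up to 0.168. The call in Context was kept in all settings run.

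A further 3 promoter peaks of the family were called as lower with CI-994 in Context mice, where 21.3% of all promoter peaks fell, making 4 of 12 with Lrrtm2. The Lrrtm4 promoter peak had 42.9, 52.9 and 51.3 CPM in HDACi-CFC, 37.9, 42.8 and 45.8 CPM in HDACi-Context, 52.0, 66.4 and 65.4 CPM in Veh-CFC, and 54.1, 54.3 and 55.2 CPM in Veh-Context. Every HDACi-Context library lay below every Veh-Context library, while the CFC groups overlapped. The change in Context was −0.37 ± 0.11 (edgeR adjusted p = 0.0323), and over both trainings it was −0.35 ± 0.08 (edgeR adjusted p = 0.003). The upstream Nrxn3 start fell by a log2 change of −0.44 ± 0.14 in Context (edgeR adjusted p = 0.0393), again with no overlap of the groups. The remaining one was the Nlgn2 peak before the gene. Each of these 3 calls was lost without Veh-Context replicate 2 or 3 or HDACi-Context replicate 2, and those of Lrrtm4 and Nrxn3 also with loess scaling or library totals. Over both trainings the downstream Nlgn1 start also fell, by −0.33 ± 0.09 (edgeR adjusted p = 0.00805), with 26.4 to 31.2 CPM in HDACi and 30.2 to 41.2 CPM in Veh libraries. Lrrtm1 (−0.11 ± 0.07, edgeR adjusted p = 0.382) and the downstream Nrxn3 start (−0.02 ± 0.11, edgeR adjusted p = 0.934) were not called.

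**Figure D2:**
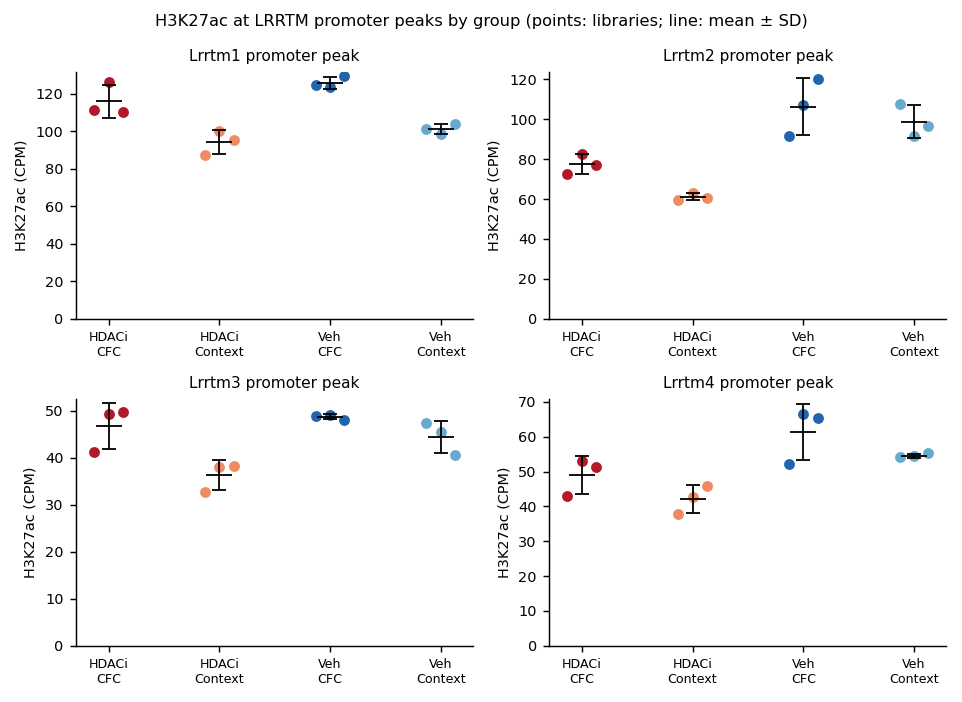
CPM (vertical axes, linear, TMM-scaled) of the 4 LRRTM promoter peaks in the 12 libraries, with points for libraries and bars for the group mean and SD (n = 3). At Lrrtm2 the HDACi libraries run from 59.8 to 82.5 CPM and the Veh libraries from 91.7 to 120.3 CPM, and at Lrrtm1 the CFC libraries run from 110.5 to 130 CPM and the Context libraries from 87.5 to 104 CPM.

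Intronic peaks leaned the other way with CI-994 in Context mice. Of the 315, 15 rose and 2 fell, against 3.59% and 2.5% of all intronic peaks, and their median change was 0.20 against 0.06. Over all classes 18 rose and 7 fell, while 2.73% of all peaks rose and 5.85% fell, 8.58% in all. The split was 26 and 5 with library totals (6279 and 6537 over all peaks) and 24 and 4 with loess scaling (5386 and 7354). In all classes, 4 peaks were called without Veh-Context replicate 3, 9 without HDACi-Context replicate 2 and 41 without HDACi-Context replicate 1. Over all peaks these fits called 1112 rises and 3518 drops, 1284 and 4536, and 5764 and 11767, against 3928 and 8429 with all libraries. In CFC mice no intronic peak of the family was called by edgeR, nor by DESeq2, where edgeR called 0.663% of all intronic peaks. At an unadjusted edgeR p under 0.05 there were 16 of 315, where 7938 of all 74023 intronic peaks passed. The median change of the family's intronic peaks was −0.10. Averaged over both trainings, 8 intronic peaks rose and 1 fell and 4 promoter peaks fell, against 4.46%, 2.29% and 21.9% of all peaks of those classes. Together with peaks elsewhere, 16 of 372 changed, where 9.33% of all peaks did.

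The shock effect was called far more often under CI-994 than under vehicle. Depth differed too, with 10153795 to 16734757 reads in peaks in HDACi and 6639158 to 13711438 in Veh libraries. The part of depth in these counts was not tested. Under HDACi, 9 of 12 promoter peaks rose and 189 of 315 intronic peaks fell, and 223 of 372 peaks were called in all. Among all peaks 37.9% were called, with 45.3% of promoter peaks rising and 18.1% of intronic peaks falling. Under vehicle, 2 promoter peaks rose (main Nlgn2 and Lrrtm1), 28 intronic peaks fell, and 34 peaks were called in all. That total was 3 without Veh-CFC replicate 1 and 7 without Veh-Context replicate 1, and the Lrrtm1 call was lost in 9 of the 12 fits that leave out a library. Calls over all peaks dropped too, to 1103 rises and 350 drops without Veh-CFC replicate 1. Without Veh-Context replicate 1 they were 1258 and 637, and with all libraries 6354 and 3946. Among all peaks 7.15% were called, with 14.1% of promoter peaks rising and 2.13% of intronic peaks falling. The medians were 0.39 and −0.63 at promoter and intronic peaks under HDACi and 0.17 and −0.34 under vehicle. The test of the difference itself called none of the 372 peaks (edgeR), where 0.0347% of all peaks were called. At an unadjusted edgeR p under 0.05 it gave 45 of 372, where 16531 of all 144014 peaks passed. DESeq2 called 1 of the 372, and 992 rises and 3 drops among all peaks. The drug effect in Context and the shock effect under HDACi share the HDACi-Context libraries, so their opposite signs are not separate evidence.

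**Figure D3:**
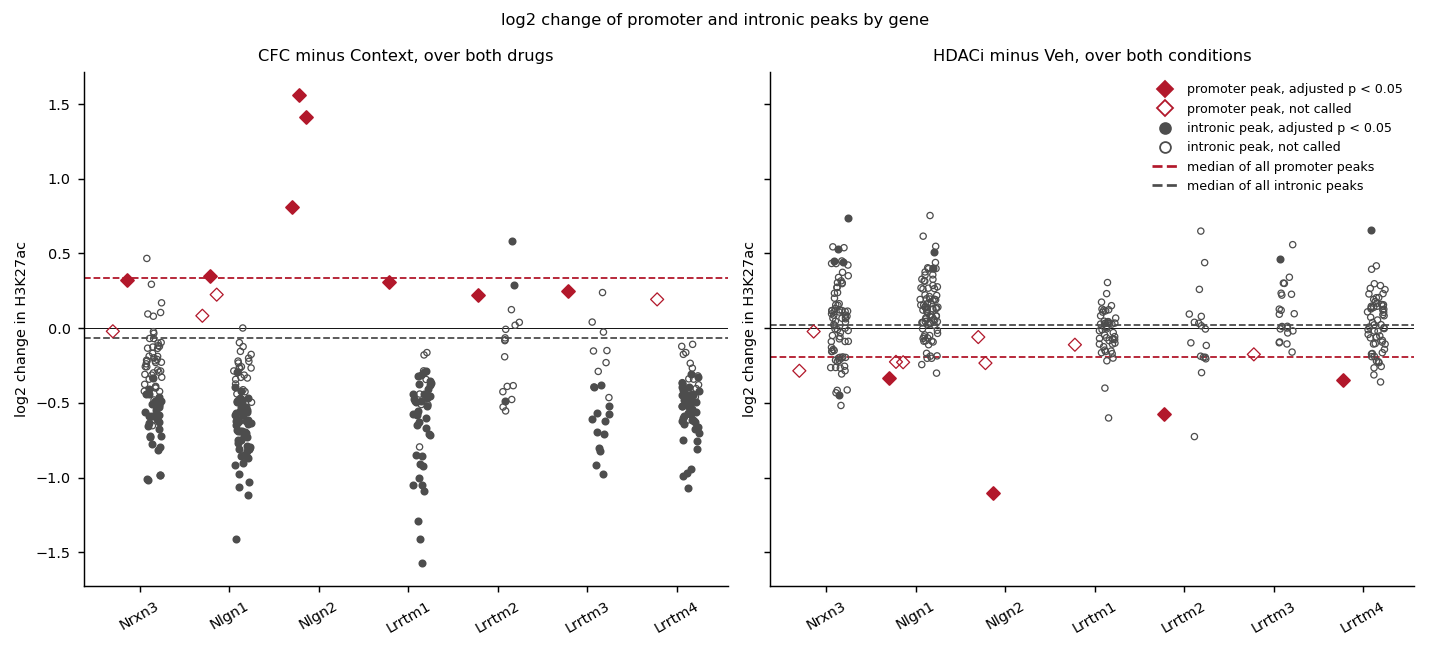
log2 fold change at the promoter and intronic peaks of each gene, for shock over both injections and CI-994 over both trainings. Each point is 1 peak, filled where called (edgeR adjusted p under 0.05) and open where not. Dashed lines mark the medians of all promoter and of all intronic peaks. With shock averaged over both injections the family medians, which are not drawn, are 0.28 at promoters and −0.49 at intronic peaks. The medians of all peaks are 0.33 and −0.07.

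The intronic drop with shock was called at most intronic peaks of Nlgn1, Lrrtm4, Lrrtm1 and Lrrtm3 and at few of Lrrtm2. Averaged over both injections, 60 of 85 Nlgn1 intronic peaks fell (median −0.56), as did 43 of 62 at Lrrtm4 (−0.49), 40 of 48 at Lrrtm1 (−0.51) and 32 of 81 at Nrxn3 (−0.38). At Lrrtm3, 8 of 9 peaks in Ctnna3 and 5 of 13 in its own introns fell. Of the 17 Lrrtm2 peaks, in Sil1 and Ctnna1, 1 fell and 2 rose, with a median of −0.08. The change was below 0 at all 48 Lrrtm1, all 62 Lrrtm4 and 84 of 85 Nlgn1 peaks.

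The intronic peak with the highest mean CPM of each gene, not adjusted for width, shows the range. That of Nrxn3, chr12:90140571-90145244, an active-enhancer peak, had 18.7, 16.0 and 17.0 CPM in HDACi-CFC, 24.8, 23.4 and 30.3 CPM in HDACi-Context, 15.4, 15.8 and 18.1 CPM in Veh-CFC, and 23.4, 24.7 and 23.2 CPM in Veh-Context. All CFC libraries lay below all Context libraries. It fell with shock by a log2 change of −0.56 ± 0.09 (edgeR adjusted p = 4.47e-06). That of Lrrtm3, chr10:63990172-63995533, had 9.85, 12.0 and 11.6 CPM in HDACi-CFC, 16.5, 22.7 and 19.3 CPM in HDACi-Context, 7.84, 10.7 and 11.04 CPM in Veh-CFC, and 12.0, 10.9 and 11.5 CPM in Veh-Context. The HDACi-Context libraries stood above the other 9. There HDACi minus Veh was 0.76 ± 0.14 in Context (edgeR adjusted p = 0.000308), and the shock effect over both injections was −0.52 ± 0.11 (edgeR adjusted p = 0.000152).

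The intronic peaks of highest mean CPM at Lrrtm4 (chr6:80075390-80084244), Nlgn1 (chr3:25900396-25904993) and Lrrtm1 (chr6:77203915-77215528, in Ctnna2) fell with shock by smaller amounts. Their log2 changes were −0.37 ± 0.09, −0.29 ± 0.09 and −0.29 ± 0.08 (edgeR adjusted p = 0.00116, 0.0066 and 0.00373). That of Lrrtm2 (chr18:35293217-35302701, in Sil1) had a change of 0.02 with an edgeR adjusted p of 0.857, and fell by −0.19 with loess scaling (edgeR adjusted p = 0.0148). It fell with CI-994 in Context, by −0.37 ± 0.11 (edgeR adjusted p = 0.0182, or 0.135 with loess scaling and up to 0.098 without HDACi-Context replicate 1 or Veh-Context replicate 1 or 3).

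The steepest drops sat at weak peaks in the control state. At chr3:26138273-26138927 in Nlgn1, 15386 bp into the gene from its nearest start, the level was 0.58 to 1.60 CPM in HDACi-CFC, 2.43 to 3.34 CPM in HDACi-Context, 0.51 to 1.27 CPM in Veh-CFC and 1.57 to 2.65 CPM in Veh-Context. The log2 change with shock was −1.41 ± 0.26 (edgeR adjusted p = 3.94e-05). At chr6:77295168-77295729 in Ctnna2, named for Lrrtm1, CFC libraries had 0.42 to 0.83 CPM and Context libraries 1.32 to 2.55 CPM, a change of −1.57 ± 0.30 (edgeR adjusted p = 4.99e-05). A stronger case lay in Nlgn1 at chr3:25914270-25915377, with 2.33 to 2.83 CPM in Veh-CFC and 5.59 to 7.02 CPM in Veh-Context libraries. There the change under vehicle was −1.31 ± 0.24 (edgeR adjusted p = 0.00113).

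Most peaks that rose with CI-994 were intronic, and 3 of 18 in Context and 2 of 10 over both trainings lay elsewhere. Of these, an intergenic peak named for Lrrtm1, chr6:75762668-75763691, rose in Context by 0.86 ± 0.27 (edgeR adjusted p = 0.034, or up to 0.149 without HDACi-Context replicate 2 or 3 or any Veh-Context library). One named for Nrxn3, chr12:88733231-88735356, rose over both trainings by 0.51 ± 0.12 (edgeR adjusted p = 0.00391). The Nrxn3 peak is annotated as intergenic, though it lies within the RefSeq span of the gene given above. In Lrrtm3, 4 of 13 peaks in its own introns rose in Context and none of 9 in Ctnna3. The largest rise was at chr10:64041023-64042672, with 5.14, 5.97 and 5.78 CPM in HDACi-Context and 2.61, 4.86 and 2.43 CPM in Veh-Context libraries, a log2 change of 0.87 ± 0.22 (edgeR adjusted p = 0.00668, or up to 0.117 without Veh-Context replicate 1 or 3). In Nrxn3, chr12:89884195-89885242 rose by 0.74 ± 0.21 over both trainings (edgeR adjusted p = 0.0173, or up to 0.078 without Veh-CFC replicate 1 or Veh-Context replicate 3). In Nlgn1, chr3:26130077-26132575 rose by 0.51 ± 0.12 (edgeR adjusted p = 0.0028), with 7.17 to 9.15 CPM in HDACi-CFC, 12.0 to 15.3 CPM in HDACi-Context, 4.75 to 7.42 CPM in Veh-CFC and 8.01 to 9.85 CPM in Veh-Context.

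Unlike most intronic peaks of the family, several active-enhancer peaks named for Lrrtm2 rose with shock under HDACi. Of its 17 intronic peaks 2 rose and 3 fell, where 16.1% of all intronic peaks rose and 18.1% fell. A further 2 peaks outside introns rose. The 3 with the largest rises are given here, and only 1 of these is intronic. The peak over a Sil1 exon at chr18:35264148-35269041, at −51570 bp from the Lrrtm2 start, had 21.4, 20.6 and 22.6 CPM in HDACi-CFC, 11.1, 7.53 and 7.55 CPM in HDACi-Context, 25.0, 20.3 and 16.6 CPM in Veh-CFC, and 12.99, 18.5 and 18.2 CPM in Veh-Context. The HDACi-Context libraries lay below all others. Its log2 change was 1.31 ± 0.16 with shock under HDACi (edgeR adjusted p = 2.7e-08) and −0.91 ± 0.16 with CI-994 in Context (edgeR adjusted p = 0.000159). The intergenic peak at chr18:35256463-35258550 rose with shock under HDACi by 1.32 ± 0.23 (edgeR adjusted p = 3.37e-05), and the one in a Sil1 intron at chr18:35270057-35272554 by 1.02 ± 0.24 (edgeR adjusted p = 0.00147).

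The intronic drop was present in all 3 common chromatin states and lay mostly in genes over 500 kb. With shock over both injections, 29 of 78 active-enhancer, 51 of 76 primed-enhancer and 109 of 160 control-state peaks of the family fell. As shares, these were 37.2%, 67.1% and 68.1%, against 13.9%, 20.2% and 23.4% of all intronic peaks in these states. Intronic peaks of all genes dropped more often the longer the gene they lay in, from 6.62% in genes up to 50 kb to 42.5% in genes over 500 kb. In genes over 500 kb lay 285 of the 315 family peaks, and 183 of these (64.2%) fell. Their median change was −0.50, against −0.34 for all 10297 intronic peaks in such genes. The genes differed within this pool. At Nrxn3 32 of 81 fell, a share below the 42.5% of all such peaks. Higher shares fell at Nlgn1 (60 of 85) and Lrrtm4 (43 of 62). The rest lay in alpha-catenin hosts, where 40 of 48 fell in Ctnna2 and 8 of 9 in Ctnna3. In genes of 50 to 200 kb, 5 of 18 family peaks fell against 13.8% of all, and in genes of 200 to 500 kb 1 of 12 fell against 23.6%.

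**Figure D4:**
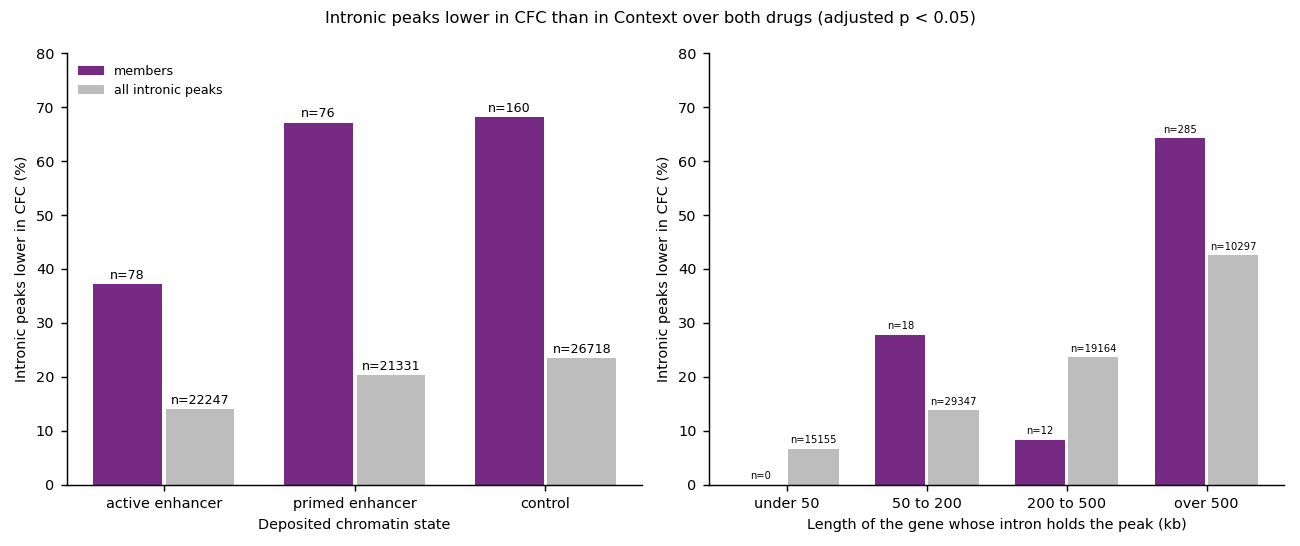
Percent of intronic peaks that fell with shock over both injections (vertical axes, from 0), for the family and for all peaks, by chromatin state on the left and by length of the gene that holds the intron on the right, with the number of peaks (n) above each bar. The family bar is the taller in all 3 states plotted and, in genes over 500 kb, reaches 64.2% against 42.5%, whereas in genes of 200 to 500 kb it is the lower.

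Setting promoter against intronic reads within each library removes any scaling of the library as a whole. The share of the promoter and intronic reads named for a gene that lay at its promoters rose with shock at all 6 family genes with both classes. For Lrrtm1 and Lrrtm2 all of the intronic reads lie in introns of other genes, as do those of 9 of the 22 Lrrtm3 peaks. At Nlgn1 the promoter share was 12.53% to 13.4% in HDACi-CFC, 6.92% to 7.995% in HDACi-Context, 14.1% to 14.8% in Veh-CFC and 9.67% to 10.9% in Veh-Context. At Lrrtm1 it was 21.7% to 23.1%, 14.0% to 14.7%, 21.0% to 26.5% and 15.1% to 16.2% in the same order of groups. At Lrrtm4 it was 12.7% to 13.04%, 7.32% to 8.37%, 14.4% to 15.2% and 10.1% to 11.6%. No CFC library of these 3 genes overlapped a Context library. The same held for Lrrtm3 and, narrowly, for Nrxn3 (lowest CFC share 5.99%, highest Context share 5.95%), but not for Lrrtm2. The median share over all genes was 38.3% to 40.7% in CFC and 33.1% to 38.4% in Context libraries. How many of all genes were free of overlap was not counted.

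Tested across 8021 genes, the log2 ratio of promoter to intronic reads rose with shock over both injections at all 6 genes, where 40.3% of all genes rose (limma, adjusted over those genes). The change was 0.73 ± 0.06 at Lrrtm1 (limma adjusted p = 5.8e-09), 0.71 ± 0.05 at Nlgn1 (limma adjusted p = 4.03e-10), 0.67 ± 0.07 at Lrrtm3 (limma adjusted p = 7.13e-08), 0.65 ± 0.05 at Lrrtm4 (limma adjusted p = 1.65e-09), 0.50 ± 0.07 at Nrxn3 (limma adjusted p = 3.45e-06) and 0.26 ± 0.05 at Lrrtm2 (limma adjusted p = 0.000403). The median over all genes was 0.24. With introns of the named gene only, Lrrtm1 and Lrrtm2 could not be tested. The other 4 genes all rose, by 0.50 to 0.71, where 2562 of 6427 genes rose. After each library was centred on its median over genes, Lrrtm1, Nlgn1, Lrrtm3, Lrrtm4 and Nrxn3 still rose, by 0.24 to 0.47, where 15.7% of all genes did, and Lrrtm2 was at 0.01. Under HDACi all 6 genes rose, with 1.01 at Lrrtm3 the largest, against 37.2% of all genes. Under vehicle 5 rose, against 13.4% of all genes, and Nrxn3 was near the threshold (0.27, limma adjusted p = 0.055, or 0.047 with a pseudocount of 5). Of the 5, Lrrtm2 and Lrrtm3 were not called after centring, Lrrtm3 also not without Veh-CFC replicate 1 or Veh-Context replicate 1 or 3, and the Lrrtm2 call was lost in 10 of the 12 fits that leave out a library.

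The ratio was lower with CI-994. In Context it fell at 5 of 6 genes, where 19.9% of all genes fell, with changes of −0.68 ± 0.10 at Lrrtm3, −0.57 ± 0.08 at Lrrtm2, −0.54 ± 0.07 at Nlgn1, −0.53 ± 0.07 at Lrrtm4 and −0.44 ± 0.10 at Nrxn3 (limma, all adjusted p under 0.05). At Lrrtm1 it was −0.15 ± 0.08 with a limma adjusted p of 0.207. After centring, Nrxn3 was not called (−0.19, limma adjusted p = 0.2001) and the other 4 changes were −0.43 at Lrrtm3 and −0.31 to −0.27 elsewhere. With the highest promoter and intronic peak only, Nlgn1 was at −0.086 (limma adjusted p = 0.673). Over both trainings the same 5 genes fell, where 21.1% of all genes did, and after centring 3 did (Lrrtm2, Lrrtm4 and Nlgn1). The Nrxn3 call over both was also lost without HDACi-CFC replicate 3, HDACi-Context replicate 3, Veh-CFC replicate 1 or 2 or Veh-Context replicate 3. In CFC Lrrtm2 alone fell, by −0.49 ± 0.08 (limma adjusted p = 0.00106), as did 3.08% of all genes. The promoter share of reads named for Lrrtm2, whose intronic part lies in Sil1 and Ctnna1, was 29.0% to 30.3% in HDACi-CFC, 25.2% to 25.7% in HDACi-Context, 35.7% to 38.8% in Veh-CFC and 31.9% to 36.1% in Veh-Context.

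Lrrtm3 was the 1 gene whose drug effect on the ratio differed between trainings. Its promoter share was 36.8%, 38.3% and 38.7% in HDACi-CFC, 23.7%, 22.9% and 23.1% in HDACi-Context, 40.6%, 36.4% and 36.02% in Veh-CFC, and 33.0%, 34.0% and 31.0% in Veh-Context. The HDACi-Context libraries stood apart below the other 9. HDACi minus Veh in CFC, less the same in Context, was 0.70 ± 0.14 (limma adjusted p = 0.035), where 0.0997% of all genes were called. The call was made in 5 of 19 alternative settings, with values of 0.53 to 0.79 and adjusted p from 0.00472 to 0.219 by limma.

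**Figure D5:**
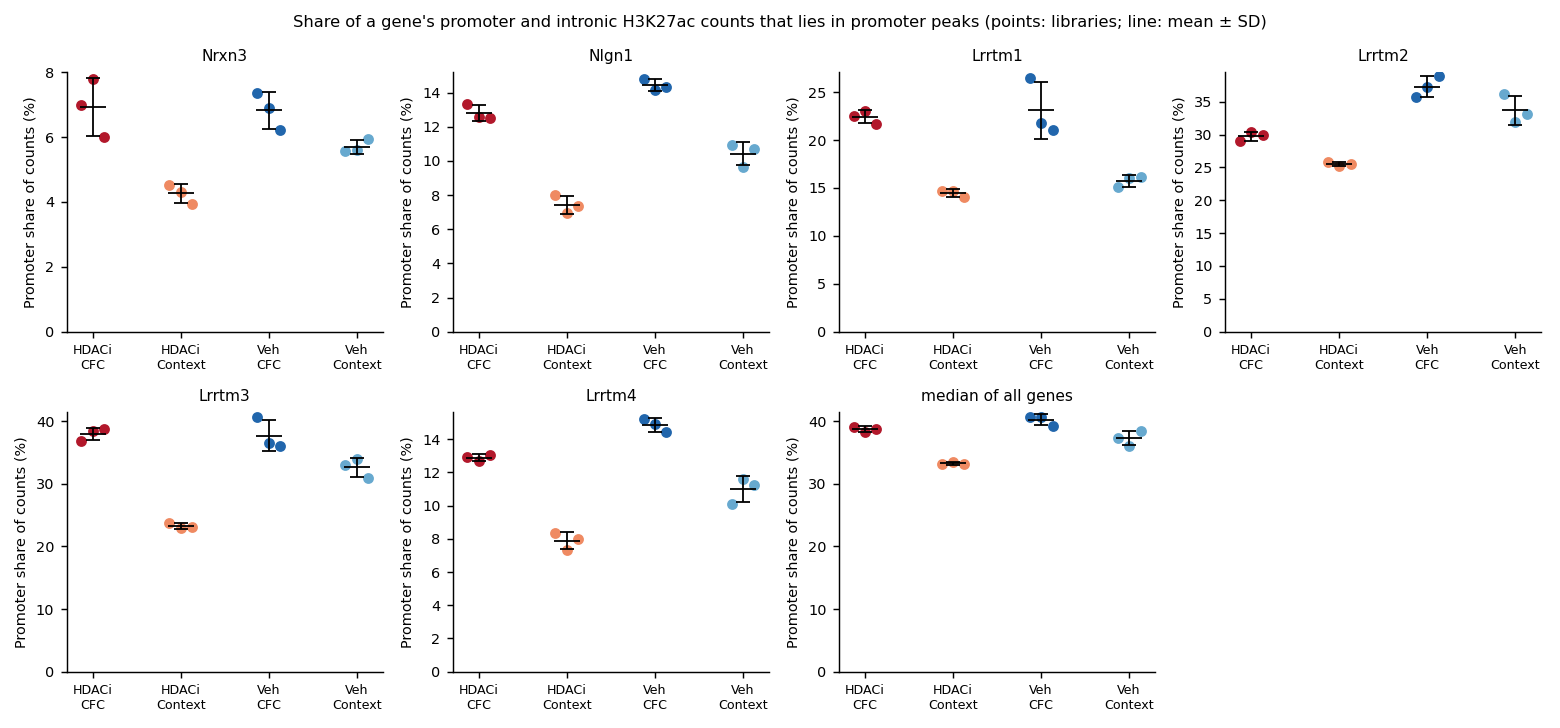
Promoter share of a gene's promoter and intronic reads (percent, vertical axes from 0) in the 12 libraries for the 6 genes with both classes and for the median of all genes, with points for libraries and bars for the group mean and SD (n = 3). Lrrtm3 in HDACi-Context lies between 22.9% and 23.7%, and in the other groups between 31.0% and 40.6%. Intronic reads of Lrrtm1 and Lrrtm2 all lie in introns of other genes.

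Genes whose main promoter peak followed the family most closely over the 12 libraries were Rnf5 (r = 0.99), Capns1 (0.99), Kcnab1 (0.99), Zfp46 (0.98) and Bcl11a (0.98). The measure was Pearson's r of log2 CPM with the mean of the family's main promoter peaks, which share library scaling with them, and its median over 14147 genes was 0.63. These are descriptions and carry no test.

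Among 73 listed genes, partners of the family together with 3 hosts of LRRTM genes, 61 had a promoter peak. With shock over both injections the main promoter peak rose at 42 and fell at 1 (Cadm1, −0.33), with a median of 0.47. Of all main promoter peaks 52.4% rose and 3.19% fell, with a median of 0.35. Among the larger rises, picked after their values were seen, were Slitrk4 (2.27) and Igsf21 (1.91), which encode synaptic adhesion proteins, and Lrrc4b (1.39) and Ptprs (1.12). Ptprs encodes a presynaptic receptor phosphatase. With CI-994 over both trainings, 2 rose (Dlgap2, 0.51, and Cadm2, 0.27) and 10 fell, against 2.67% and 24.9% of all main promoter peaks. Among the 10 were Clstn3 (−0.83), Dlg4 (−0.56), which encodes the postsynaptic scaffold PSD-95, Cask (−0.45), a presynaptic scaffold that binds neurexins, and Cntnap2 (−0.45), a neurexin relative. Of presynaptic receptors and intracellular partners 7 of 14 rose with shock, of secreted or bridging ligands 8 of 10, of postsynaptic partners and other adhesion proteins 26 of 34, and of the host genes 1 of 3.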

How the data were processed

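H3K27ac ChIP-seq counts per peak were analysed in 12 libraries, 3 in each of 4 groups, and the 12 input libraries were not analysed here. The authors deposited whole-number read counts for 144154 peaks (mm10) with each peak's nearest gene, annotation and chromatin state. Per the submitters' processing notes, reads were handled with HOMER 4.11, DESeq2 1.28.1, DiffBind 2.16.2, MACS2, Trimmomatic 0.38, SAMtools 1.9 and Bowtie2 2.3.5, listed in no order. Per the file headers, a percent column stands beside the chromatin state and was not used. The smallest value was 1, held by 3620 cells, so a floor of 1 cannot be told from a count of 1. The column names carry no antibody and were matched to libraries by group and replicate. The series text and the labels differ in treatment and replicate numbers, and the labels were followed.

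Counts were tested with edgeR 4.0.16 in R 4.3.3 (quasi-likelihood, robust, TMM factors, filterByExpr with a minimum count of 10, 1 term per group over 12 libraries), which removed 140 peaks. The median biological coefficient of variation was 0.131. Effects over both injections or trainings are means of the 2 effects. The ratio of promoter to intronic counts (pseudocount 0.5, mean of at least 20 counts a class) was fitted with limma 3.58.1 (trend, robust). CPM are scaled by TMM. Alternatives were DESeq2 1.42.0 and its size factors, library totals, loess offsets, no filter, a replicate block, only the groups compared, other ratio definitions and each library left out. The fits were tested on simulated counts. Figures were drawn with matplotlib 3.10.9.

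The members, gene lists and tests were chosen with earlier results of these data known. Peaks were named by rule: the promoter and intronic peak of highest mean CPM of each gene, and the 5 largest rises and drops among called member peaks in each contrast. All 12 promoter peaks are also given. Gene lengths and sequences came from RefSeq, where 98.8% of 18808 symbols matched. Windows are those of the 250 bases before a start.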

Additional observations from a re-analysis of the deposited data

Results flagged for a closer look

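The promoter to intron ratio of Lrrtm3 drew attention because the drug effect differed between trainings in a direct test. HDACi minus Veh in CFC, less HDACi minus Veh in Context, was 0.70 ± 0.14 on the log2 scale (limma adjusted p = 0.035 over 8021 genes, 3 libraries a group). The drug effect was 0.02 in CFC and −0.68 in Context. With libraries centred on their median over genes it was 0.53 with a limma adjusted p of 0.219.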

How the results depend on the processing

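Of 202 results for named peaks and genes, 5 turned direction. Loess scaling gave −0.15 for the Lrrtm1 promoter with shock under HDACi (edgeR adjusted p = 0.161), −0.053 and −0.034 for the Lrrtm2 promoter with shock under HDACi and over both injections, and −0.19 for the main Lrrtm2 intronic peak over both, a called drop (edgeR adjusted p = 0.0148). Centring on the library median gave −0.039 for the Lrrtm2 ratio with shock under HDACi. The causes were not tested.

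Counts of called member peaks moved as follows. The drug effect in CFC gave 1, and 2 with library totals or loess scaling. The shock effect under vehicle gave 34, 19 with DESeq2 and 21 with only the groups compared. Over all peaks its rises and drops were 6354 and 3946, 3839 and 2193, and 5641 and 2363 in the same order. The interaction gave 0, and 1 with DESeq2, which called 992 rises and 3 drops over all peaks. Leaving out 1 library gave 0 to 3 for the drug in CFC, 4 to 41 for the drug in Context (25 with all), 11 to 23 for the drug over both (16), 3 to 51 for shock under vehicle, 174 to 239 for shock under HDACi, 189 to 243 for shock over both and 0 to 8 for the interaction. For the drug in Context, 4 remained without Veh-Context replicate 3, 9 without HDACi-Context replicate 2, 11 without HDACi-Context replicate 3, 14 without Veh-Context replicate 2 and 41 without HDACi-Context replicate 1. Calls over all peaks moved as well. With all libraries there were 3928 rises and 8429 drops, against 1112 and 3518 in the first of these fits and 5764 and 11767 in the last. For shock under vehicle, 3 were left without Veh-CFC replicate 1, 7 without Veh-Context replicate 1, 20 without Veh-Context replicate 3 and 21 without Veh-CFC replicate 2. Over all peaks these fits gave 1103 rises and 350 drops, 1258 and 637, 5760 and 2282, and 4315 and 2385. The loss of calls was thus not particular to the family.

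Genes called in the ratio changed most with classes taken from the annotation alone, where fewer family genes could be tested: 0 for the drug in CFC, 1 in Context, 1 over both, 0 for shock under vehicle, 1 under HDACi, 1 over both and 0 for the interaction. The drug in CFC gave 2 with the strongest peaks only and 0 with the named gene's own introns. With own introns only 4 family genes could be tested. Lrrtm1 and Lrrtm2 have no intronic peak of their own, so the Lrrtm2 call was not tested there. The drug over both gave 3 after centring, and shock under vehicle 3 after centring and 3 of 4 with own introns. The interaction gave 0 with no minimum count, the strongest peaks only, the replicate block and centring. Leaving out 1 library gave 1 to 2 (drug in CFC), 5 (drug in Context), 4 to 5 (drug over both), 3 to 5 (shock under vehicle), 6 (shock under HDACi), 6 (shock over both) and 0 to 2 (interaction). Promoter minus intronic medians were 0.76 for shock and −0.28 for the drug, and 1.30 and −0.71 by annotation alone. The latter rest on fewer promoter peaks and are not a like comparison. The Lrrtm1, Lrrtm2, Lrrtm4, main Nlgn2 and upstream Nrxn3 promoter peaks are annotated as intron or exon. The Nlgn2 peak before the gene, with a mean of only 18.3 counts, stays among the promoters. Without 1 library the main values ran from 0.73 to 0.80 and from −0.34 to −0.24.

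Replicate numbers showed no consistent pairing of the libraries. Correlations ran from −0.28 to 0.35 in 18 same-number pairs, 2 of them above 0.1, and from −0.29 to 0.24 in other pairs. HDACi-Context replicate 1 correlated at 0.35 with Veh-CFC replicate 1, its best match, but at −0.28 with Veh-Context replicate 1. With the replicate block, 102 of 104 named calls were kept. The ratio calls lost were Lrrtm2 with shock under vehicle (limma adjusted p = 0.0599) and the Lrrtm3 interaction (0.0528). Calls gained were the Nrxn3 ratio with shock under vehicle (0.0461), the main Nlgn2 promoter with the drug in Context (edgeR adjusted p = 0.0433) and the Lrrtm4 promoter with shock over both (0.0462). Under the block, member peaks called numbered 1, 26, 16, 36, 220, 222 and 0 in the order drug in CFC, in Context, over both, shock under vehicle, under HDACi, over both and interaction. Of 104 named calls, 46 were lost under at least 1 alternative. Weak peaks, at a few counts per library, limit what small changes can be seen.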
